A study of Homo sapiens with 120 samples.

Results

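RNA of ΔATG cells was compared with RNA of unedited (WT) cells on days 1 and 2 of a definitive endoderm protocol. Both derive from H1, a widely used line of human embryonic stem cells. ΔATG is, from its name, a line in which lncPRESS1 has lost its start codon, the point at which a translated protein would begin. LNCPRESS1 is annotated as a long non-coding RNA gene. The libraries were chosen by their titles: WT and ΔATG cells of the endoderm protocol (Endo), on days 1 and 2, matched by day. That gives 8 of the 120 libraries of the series, in 4 groups of 2 libraries each, labelled a and b. In the Endo protocol, per the labels, single cells were plated with a ROCK inhibitor on day 0, received the first medium of a commercial kit with the supplements MR and CJ on day 1, and the second medium with CJ only from day 2. Other libraries used for comparison were WT and ΔATG cells at day 0, on days 1 and 2 of the mesoderm protocol with BMP4, and on days 3 to 5 of Endo, and a knockout line (KO) on days 1 and 2 of Endo. Edit and clone cannot be told apart, since the number of clones behind each edited line is not given. Nothing in the labels says that libraries a and b came from separate cultures, and p-values therefore measure the spread between these libraries, which may be technical.

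During gastrulation, pluripotent epiblast cells pass through the primitive streak, where graded Nodal, Wnt and BMP signals direct them. High Nodal signalling leads to definitive endoderm, the source of gut, liver and pancreas, while BMP and Wnt signals favour lateral and cardiac mesoderm, marked early by the factor MESP1. Directed endoderm cultures pass through the same streak state before CXCR4, SOX17 and FOXA2 come up.

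The labelled endoderm was checked against its markers. CXCR4, the surface receptor used to sort definitive endoderm, stood at 0.341 and 0.14 CPM (counts scaled to a common library total) in the WT libraries of day 1 and at 138 and 143 CPM on day 2. SOX17, an endoderm transcription factor, stood at 0.916 and 1.07 CPM on day 1 and at 566 and 525 CPM on day 2. Day 1 was thus nearly without CXCR4 and SOX17. MIXL1, a factor of streak and early mesendoderm, was already at 2140 and 2170 CPM in WT on day 1. Other members of the endoderm list were present on day 1 too, among them CER1 at 1790 and 1760 CPM and GATA6 at 295 and 272 CPM in WT, and the list summed to 2750 to 2840 CPM in WT on day 1 and to 12600 to 12700 CPM on day 2. The pair of marker genes given for this comparison, MESP1 and GATA4, were both present in every library.

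LNCPRESS1 did not check the labels, since the edit need not change its RNA level. It stood at 1.65 and 1.05 CPM in WT and 1.84 and 1.62 CPM in ΔATG on day 1, and at 0.209 and 0.376 CPM and 0.43 and 0.289 CPM on day 2, near the lower limit of measurement. Its mean log2 fold change over both days was 0.34 ± 0.47, adjusted p = 0.694. Depth ran from 42960660 to 59120954 counts per library, with 27237 to 28022 genes above 0. The spread of log2 differences between libraries a and b (SD over genes) was 0.221 to 0.273 in the 4 groups. Of 25821 genes tested with edgeR's quasi-likelihood test, 3767 (14.6%) passed an adjusted p of 0.05 on day 1, 1680 higher in ΔATG (6.51%) and 2087 lower (8.08%). On day 2, 3544 genes passed (13.7%), 1584 higher (6.13%) and 1960 lower (7.59%). For the mean of both days, 5119 passed (19.8%), 2323 higher (9.00%) and 2796 lower (10.8%), of which 514 and 580 differed at least 2-fold. Without WT day 1 library a, 1333 genes passed on day 1, and without ΔATG day 1 library a or b 2153 and 2454, while day 2 gave 1836 without ΔATG day 2 library a and 2148 without WT day 2 library a. The median log2 fold change of all genes was 0.01, 0 and 0.004 in these comparisons. A count of the members of a gene list is read below against these shares.

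**Figure D1:**
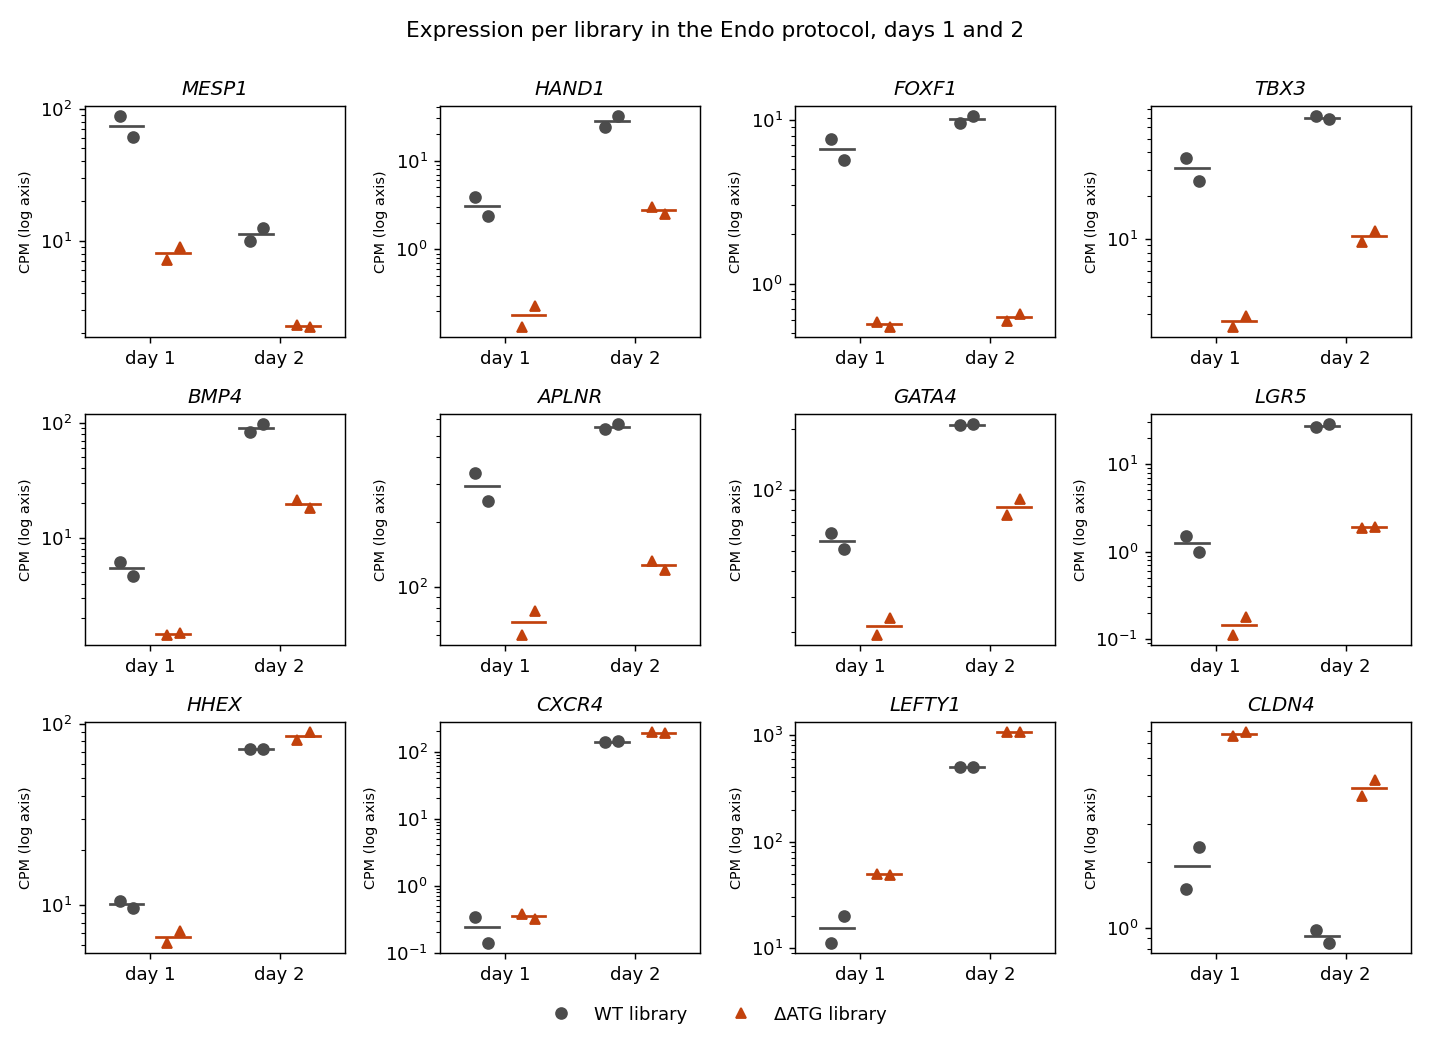
CPM in each library (points, log axis) of WT and ΔATG cells on days 1 and 2 of Endo for 12 genes, with bars at the group means. The ΔATG points of MESP1, HAND1, FOXF1, TBX3, BMP4, APLNR, GATA4 and LGR5 lie below the WT points of the same day, and those of LEFTY1 and CLDN4 lie above.

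The deepest falls among developmental genes were in lateral and cardiac mesoderm. Of the 26 genes of that list tested, 14 fell and 1 rose on day 1, 16 fell and none rose on day 2, and 17 fell and none rose in the mean of both days, where the list's median log2 fold change was -1.30 against 0.004 for all genes. In 16 members both ΔATG libraries lay below both WT libraries on both days, and in 2 members above, while 12.6% and 13.1% of all tested genes did so. In bulk RNA, fewer cells of a type and less RNA per cell cannot be told apart, here and in all results that follow.

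MESP1 (chr15:89748661-89751310, minus strand, GRCh38), the factor that opens the cardiac mesoderm programme, stood at 87.7 and 61.4 CPM in the WT libraries of day 1 and at 7.11 and 8.96 CPM in ΔATG. By day 2 it had declined in WT to 10 and 12.4 CPM and stood at 2.31 and 2.24 CPM in ΔATG. The groups did not overlap on either day, and the ΔATG level of day 1 was near the WT level of day 2. The log2 fold change was -3.20 ± 0.23, adjusted p = 1.26e-16 on day 1 and -2.29 ± 0.29, adjusted p = 8.48e-09 on day 2.

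HAND1, a factor of lateral mesoderm and amnion, stood at 3.86 and 2.39 CPM in WT and 0.135 and 0.229 CPM in ΔATG on day 1. On day 2 it stood at 24 and 31.8 CPM in WT and 3.04 and 2.51 CPM in ΔATG. It thus came up between the days in both lines, to a level in ΔATG near the day 1 level of WT, and its log2 fold change was -4.04 ± 0.48, adjusted p = 1.01e-09 on day 1 and -3.33 ± 0.22, adjusted p = 6.46e-20 on day 2. FOXF1, a factor of splanchnic mesoderm, was at 7.65 and 5.64 CPM in WT and 0.583 and 0.546 CPM in ΔATG on day 1. On day 2 it was at 9.59 and 10.5 CPM and 0.591 and 0.65 CPM, the deepest fall of any member with at least 2 CPM on average, at -3.78 ± 0.21 in the mean of both days. TBX3, a T-box repressor of mesoderm and amnion, was at 36.5 and 25.4 CPM in WT and 2.44 and 2.9 CPM in ΔATG on day 1, and at 71.6 and 68.6 CPM and 9.49 and 11.3 CPM on day 2. All 4 ΔATG libraries lay below all 4 WT libraries for TBX3, with a log2 fold change of -3.52 ± 0.25 on day 1 and -2.75 ± 0.20 on day 2.

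The forkhead genes FOXC1 and FOXC2, which act in paraxial and vascular mesoderm, both fell in the mean of both days, at -2.03 ± 0.15 and -1.97 ± 0.42. NKX2-5 and ISL1, the factors of the first and second heart fields, were scarce in WT, at 0.916 and 0.507 and 1.36 and 0.629 CPM on day 1, and still lower in ΔATG, at 0.0673 and 0.0352 and 0.202 and 0.211 CPM. Both fell on both days, and their means were -4.09 ± 0.49 and -2.45 ± 0.40. The receptor genes KDR and PDGFRA, which mark early mesoderm, fell by less, at -0.68 ± 0.09 and -0.95 ± 0.15. HAND2 fell on day 2, from 2.39 and 2.63 CPM in WT to 0.179 and 0.199 CPM in ΔATG (-3.71 ± 0.43). MEF2C was the member that rose on day 1, at 0.97 and 1.35 CPM in WT and 5.05 and 1.76 CPM in ΔATG (1.49 ± 0.44, adjusted p = 0.0143). That call was lost without ΔATG day 1 library a (adjusted p = 0.631) or WT day 1 library a (adjusted p = 0.193). The day 1 call of HAND2 was lost without ΔATG day 1 library b (adjusted p = 0.649) or WT day 1 library b (adjusted p = 0.233) or WT day 1 library a (adjusted p = 0.0826), and that of ISL1 was lost without WT day 1 library a (adjusted p = 0.227). TBX5, TCF21 and BMP5 were at most 0.163 CPM in any of the 8 libraries and passed no test here.

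Promoter sequences are shown for 4 of the mesoderm genes that fell, while no promoter entry was matched for MESP1 and FOXF1. All 4 were lower in ΔATG in the mean of both days, though the size of the fall in MESP2 and HAND2 differed between the days. The sequences are from RefSeq (GRCh38.p14), and capitals mark the matches found. They run 5′ to 3′ on the gene's strand from 250 bases before to 50 bases after its start. MESP2 is the neighbour and paralog of MESP1, and its promoter window lies at chr15:89776082-89776381 on the plus strand. The window of HAND1 lies at chr5:154478178-154478477 on the minus strand, that of HAND2 at chr4:173530180-173530479 on the minus strand and that of ISL1 at chr5:51383198-51383497 on the plus strand.
MESP2: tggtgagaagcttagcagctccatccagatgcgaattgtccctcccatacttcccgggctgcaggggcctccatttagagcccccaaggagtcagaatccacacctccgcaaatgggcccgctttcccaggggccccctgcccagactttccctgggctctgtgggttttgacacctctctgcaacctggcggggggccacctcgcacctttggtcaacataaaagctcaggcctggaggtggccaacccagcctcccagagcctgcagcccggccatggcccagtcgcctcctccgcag
HAND1: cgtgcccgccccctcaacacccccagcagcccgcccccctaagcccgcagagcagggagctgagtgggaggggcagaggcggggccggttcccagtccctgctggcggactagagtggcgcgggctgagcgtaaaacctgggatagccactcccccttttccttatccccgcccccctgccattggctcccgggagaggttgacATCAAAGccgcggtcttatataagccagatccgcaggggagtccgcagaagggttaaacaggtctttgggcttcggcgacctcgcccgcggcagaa
HAND2: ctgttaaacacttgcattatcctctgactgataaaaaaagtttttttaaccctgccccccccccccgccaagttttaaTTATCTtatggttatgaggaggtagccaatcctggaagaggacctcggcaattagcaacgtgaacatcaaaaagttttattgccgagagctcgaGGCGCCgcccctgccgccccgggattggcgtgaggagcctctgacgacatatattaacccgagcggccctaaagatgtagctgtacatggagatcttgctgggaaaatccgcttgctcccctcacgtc
ISL1: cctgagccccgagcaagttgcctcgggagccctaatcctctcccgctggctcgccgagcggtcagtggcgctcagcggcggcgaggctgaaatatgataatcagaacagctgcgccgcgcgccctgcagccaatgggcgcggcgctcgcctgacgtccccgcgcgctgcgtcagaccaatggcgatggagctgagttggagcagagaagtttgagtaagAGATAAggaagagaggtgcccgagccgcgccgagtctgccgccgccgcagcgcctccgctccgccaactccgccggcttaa
On both strands 5 motifs were searched: the GC-rich element of BMP SMADs (GGCGCC), the GATA site (AGATAA), the TCF/LEF core (CTTTGAT), a T-box half-site (AGGTGTGA) and the palindromic SMAD element (GTCTAGAC). HAND1 held a TCF/LEF core on the reverse strand, HAND2 a GC-rich SMAD element and a GATA site on the reverse strand, and ISL1 a GATA site, none overlapping another, while MESP2 held none of these letters in this window. Over all 35116 promoters of the same length, the shares with a match were 19.2%, 10.3%, 2.62%, 0.98% and 0.202% in the order above. Of the mesoderm list, 19 of 26 genes matched a promoter, and 4 (21.1%), 6 (31.6%), 1 (5.26%), 0 and 0 of these held the motifs. A match describes the letters only.

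Genes of the primitive streak were lower as a group, with a smaller and more uneven difference. Of 20 tested, 13 fell and none rose on day 1, 9 fell and 2 rose on day 2, and 15 fell and none rose in the mean of both days. The 2 rises of day 2 were FOXH1, lost without ΔATG day 2 library a (adjusted p = 0.109), and NODAL, lost when any 1 of 8 libraries was left out (adjusted p = 0.0504 to 0.242, the highest without ΔATG day 2 library a). TBXT (brachyury), the streak's defining T-box factor, was at 371 and 334 CPM in WT and 245 and 249 CPM in ΔATG on day 1 (-0.51 ± 0.15, adjusted p = 0.0112). By day 2 it had dropped to 8.27 and 7.34 CPM and 5.95 and 7.32 CPM, and there it did not pass the test. The day 1 call was lost without WT day 1 library a (adjusted p = 0.158) or ΔATG day 1 library a (adjusted p = 0.0729) or ΔATG day 1 library b (adjusted p = 0.0539). EVX1, a posterior streak factor, stood at 273 and 246 CPM in WT and 114 and 118 CPM in ΔATG on day 1, and at 5.19 and 5.2 and 1 and 1.5 CPM on day 2. EVX1 was thus lower in ΔATG on both days, at -1.16 ± 0.16 and -2.05 ± 0.30. APLNR, the apelin receptor of early mesoderm, was at 339 and 252 CPM in WT and 60.5 and 78.1 CPM in ΔATG on day 1. On day 2 it was at 539 and 567 and 132 and 121 CPM, and the fall of about the same size on both days was -2.09 ± 0.22 and -2.13 ± 0.22. APLN, the ligand of this receptor, rose on day 1, from 3.95 and 8.18 CPM to 16.5 and 17.2 CPM (1.47 ± 0.19).

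Streak factors that also act in endoderm differed in size and by day. EOMES, the T-box factor upstream of endoderm, was at 721 and 730 CPM in WT and 604 and 633 CPM in ΔATG on day 1, and at 1210 and 1200 and 1070 and 1020 CPM on day 2. Its fall in the mean of both days was -0.22 ± 0.08, adjusted p = 0.0461, and this call was lost when any 1 of 8 libraries was left out (adjusted p = 0.0621 to 0.133, the highest without ΔATG day 2 library b). GSC, a factor of the anterior streak and organiser, did not pass the test on either day or in the mean (0.03 ± 0.09, adjusted p = 0.862). MIXL1 passed on day 2, at 1480 and 1530 CPM in WT and 828 and 791 CPM in ΔATG (-0.90 ± 0.17), and not on day 1 (adjusted p = 0.664), and the difference between the days did not pass (adjusted p = 0.0576). LHX1, an organiser and anterior endoderm factor, was lower on day 1, at 200 and 193 CPM in WT and 60.5 and 78.1 CPM in ΔATG (-1.50 ± 0.18). A day later it was at 2740 and 2810 and 2800 and 2380 CPM, with overlapping groups, and the difference between the days was 1.40 ± 0.24, adjusted p = 8.18e-05. The secreted factor FGF17 was at 147 and 114 CPM in WT and 34.8 and 46.3 CPM in ΔATG on day 1 and at 2040 and 1960 and 2550 and 2600 CPM on day 2 (2.05 ± 0.21, adjusted p = 3.37e-10 between the days). FGF8, its relative, differed the other way round: it did not pass on day 1 (0.15 ± 0.12) and fell on day 2 (-1.40 ± 0.13), a difference between the days of -1.54 ± 0.18, adjusted p = 9.57e-09. CDX1 fell on day 1 (-1.99 ± 0.23), and so did WNT8A (-1.15 ± 0.29), both marking the posterior streak, the second a call lost without WT day 1 library a (adjusted p = 0.0664) or ΔATG day 1 library b (adjusted p = 0.0606).

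Definitive endoderm genes split, and the split moved with the day. Of 24 tested, 3 rose and 8 fell on day 1, while 9 rose and 3 fell on day 2, beside 6.51% and 8.08% of all genes on day 1 and 6.13% and 7.59% on day 2. Without WT day 1 library a, 1 rose and 6 fell on day 1. The day 2 minus day 1 difference was itself positive in 7 members and negative in 1. It was positive in FOXA1, FOXA3, GATA6, HHEX, PRDM1, CYP26A1 and RIPK4 and negative in CPE, against 2.11% and 2.01% of all genes in those directions.

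GATA4, a zinc-finger factor shared by endoderm and heart, fell on both days. It was at 61.4 and 51.1 CPM in WT and 19.5 and 23.5 CPM in ΔATG on day 1, and at 209 and 210 and 75 and 90.2 CPM on day 2. WT and ΔATG thus both gained GATA4 between the days, with ΔATG lower by about the same log2 difference, -1.38 ± 0.16, adjusted p = 2.11e-09 and -1.34 ± 0.15, adjusted p = 4.54e-10. Its paralog GATA6 was at 295 and 272 CPM in WT and 139 and 164 CPM in ΔATG on day 1 (-0.91 ± 0.14), and at 918 and 896 and 882 and 825 CPM on day 2, where it did not pass (-0.09 ± 0.13, adjusted p = 0.774). LGR5, the R-spondin receptor and Wnt target, was at 26.7 and 28.5 CPM in WT and 1.88 and 1.93 CPM in ΔATG on day 2 (-3.85 ± 0.26, adjusted p = 3.76e-18). That was the deepest fall of the endoderm list, and on day 1, at 1.51 and 0.978 and 0.112 and 0.176 CPM, it was -3.05 ± 0.71. CYP26A1, which degrades retinoic acid, fell on day 1 (-1.68 ± 0.17) and did not pass on day 2 (-0.42 ± 0.15). CER1, a secreted Nodal, BMP and Wnt inhibitor, was at 1790 and 1760 CPM in WT and 1010 and 1230 CPM in ΔATG on day 1 (-0.67 ± 0.16), a call lost without ΔATG day 1 library a (adjusted p = 0.0726).

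Several endoderm factors were higher in ΔATG on day 2. FOXA1, a pioneer factor of the later endoderm, was at 1.65 and 1.71 CPM in WT and 8.02 and 6.78 CPM in ΔATG (2.14 ± 0.23, adjusted p = 6.33e-11). PRDM1, a repressor active in anterior endoderm, was lower on day 1, at 2.42 and 1.68 CPM in WT and 0.919 and 0.915 CPM in ΔATG, and higher on day 2, at 83 and 79.2 and 134 and 149 CPM. Its log2 fold change went from -1.16 ± 0.29 to 0.81 ± 0.13, and the day 1 call was lost without WT day 1 library a (adjusted p = 0.166). CXCR4 was at 193 and 191 CPM in ΔATG on day 2, above both WT libraries (0.45 ± 0.11), and KIT, the other sorting marker, rose by 0.61 ± 0.13. SOX17 was at 701 and 718 CPM in ΔATG on day 2, also above both WT libraries, but did not pass the test (0.38 ± 0.17, adjusted p = 0.141). FOXA2 rose on day 1 (0.48 ± 0.14), a call lost without WT day 1 library a (adjusted p = 0.493) or ΔATG day 1 library a (adjusted p = 0.132) or ΔATG day 1 library b (adjusted p = 0.0792), and did not pass on day 2 (0.28 ± 0.13).

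**Figure D2:**
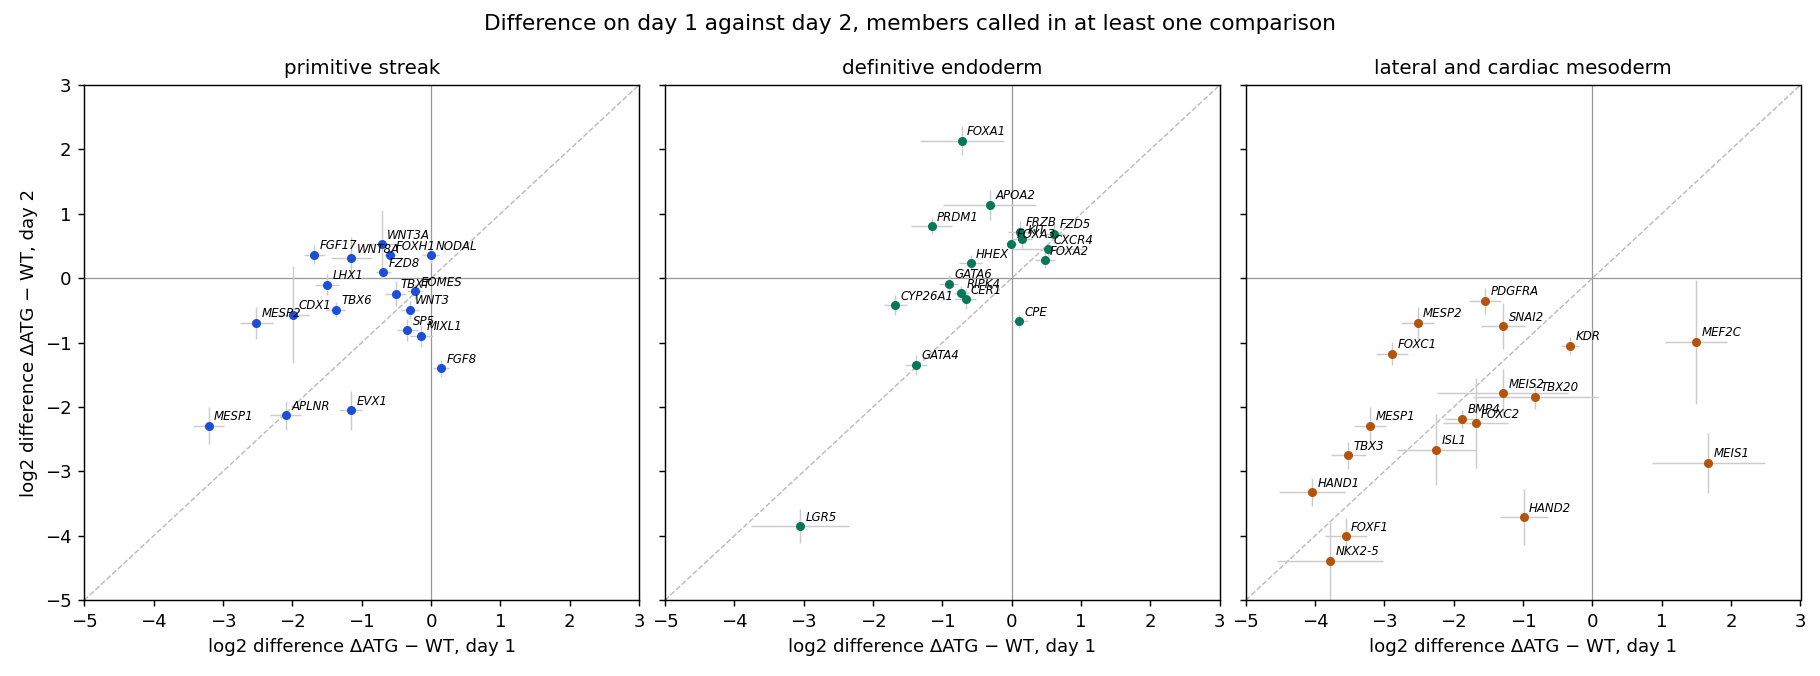
Log2 fold change of ΔATG over WT on day 1 (horizontal) against day 2 (vertical), with bars of 1 SE, for members called on day 1, on day 2 or in the mean: 19 streak, 17 endoderm and 18 mesoderm genes, 1 gene of each of the last 2 lists not being drawn. Most mesoderm genes lie in the lower left, and several endoderm and streak genes lie low on day 1 and at or above 0 on day 2.

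Nodal signalling acts through ligands that need the co-receptor TDGF1, activin receptors, SMAD2 and SMAD3 with FOXH1, and the feedback inhibitors LEFTY1 and LEFTY2. Of 22 genes tested, 2 rose and 4 fell on day 1, 4 rose and 7 fell on day 2, and 2 rose and 4 fell in the mean of both days. The shares of all genes in the mean were 9.00% rising and 10.8% falling, so the 2 rises lay near theirs. Without ΔATG day 1 library a 1 fell on day 1 and without WT day 1 library a 2 fell, and without ΔATG day 2 library a 2 rose on day 2. Among the ligands, NODAL was at 341 and 325 CPM in WT and 338 and 325 CPM in ΔATG on day 1, with overlapping groups. On day 2 it was at 175 and 173 and 226 and 220 CPM (0.36 ± 0.13, adjusted p = 0.0454), a call lost when any 1 of 8 libraries was left out (adjusted p = 0.0504 to 0.242, the highest without ΔATG day 2 library a). TDGF1 and the receptors ACVR1B and ACVR2B did not pass on either day, while the receptors ACVR2A (-0.45 ± 0.12) and ACVR1C (-1.12 ± 0.32) fell on day 2. The call of ACVR1C was lost without WT day 2 library a (adjusted p = 0.384) or ΔATG day 2 library b (adjusted p = 0.142). The inhibitor LEFTY1 was higher in ΔATG, at 11.2 and 19.8 CPM in WT and 49.9 and 48.5 CPM in ΔATG on day 1. On day 2 it was at 502 and 503 and 1060 and 1060 CPM, so that the groups were apart on both days (1.67 ± 0.16 and 1.08 ± 0.14). LEFTY2 rose on day 1 (0.83 ± 0.15) and did not pass on day 2 (0.14 ± 0.13). The transducer SMAD3 was at 55 and 58.6 CPM in WT and 23.6 and 20.9 CPM in ΔATG on day 2 (-1.35 ± 0.14, adjusted p = 4.06e-11), and SMAD2 fell there (-0.45 ± 0.08). Neither SMAD passed on day 1. FOXH1, their DNA-binding partner, fell on day 1 (-0.59 ± 0.08) and rose on day 2 (0.36 ± 0.08), the second a call lost without ΔATG day 2 library a (adjusted p = 0.109).

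BMP ligands, inhibitors and targets fell, while several receptors and SMADs did not pass the test. BMP ligands bind type I and II receptors, which activate SMAD1, SMAD5 and SMAD9, and the ID, MSX and GATA2/GATA3 genes are common targets. Of 25 genes tested, 13 fell on day 1, 15 on day 2 and 15 in the mean of both days, and none rose. BMP4 and BMP5 are also counted in the mesoderm list. Among ligands, BMP4 was at 6.18 and 4.65 CPM in WT and 1.44 and 1.5 CPM in ΔATG on day 1, and at 82.4 and 96.7 and 21.3 and 18 CPM on day 2. Its groups were apart on both days (-1.88 ± 0.24, adjusted p = 2.73e-08 and -2.18 ± 0.15, adjusted p = 7.17e-18). BMP2 was at 133 and 107 CPM in WT and 37.2 and 53.8 CPM in ΔATG on day 1 and fell (-1.24 ± 0.10) in the mean, and BMP7 fell (-1.05 ± 0.11). The receptors BMPR1A and BMPR2 and the transducers SMAD1 and SMAD5 did not pass in the mean, with log2 fold changes of 0.09 ± 0.11, -0.30 ± 0.14, -0.20 ± 0.11 and -0.03 ± 0.19. Inhibitors fell with the ligands: SMAD6 (-0.86 ± 0.07), BAMBI (-0.96 ± 0.11), FST (-1.44 ± 0.11) and NOG (-1.53 ± 0.20).

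Among the targets, GATA2 was at 8.93 and 5.24 CPM in WT and 0.605 and 0.634 CPM in ΔATG on day 1, and at 2.61 and 2.65 and 0.233 and 0.108 CPM on day 2. It had the deepest fall of the list, -3.72 ± 0.34, adjusted p = 1.86e-13 in the mean. MSX1 was at 33.6 and 16.2 CPM in WT and 1.79 and 2.18 CPM in ΔATG on day 1, and fell (-3.06 ± 0.20) in the mean, while MSX2 fell (-1.92 ± 0.13) and GATA3 (-1.96 ± 0.16). ID1, a direct target in most cell types, was at 159 and 139 CPM in WT and 79.6 and 76.2 CPM in ΔATG on day 1 (-0.93 ± 0.14). On day 2 its ΔATG libraries stood at 27.2 and 45 CPM against 57 and 53.5 CPM in WT, and the call was lost without ΔATG day 2 library a (adjusted p = 0.338). Of the BMP list, 21 of 25 genes matched a RefSeq promoter, and the GC-rich SMAD element was found in 7 of them (33.3%), against 19.2% of all promoters. A GATA site was found in 2 (9.52%, against 10.3%) and the palindromic SMAD element in 1 (4.76%, against 0.202%). The TCF/LEF core and the T-box half-site were found in 0. Whether these shares differ from those of all promoters was not tested.

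More Wnt pathway genes fell than rose. Of 38 tested, 3 rose and 15 fell on day 1, 4 rose and 14 fell on day 2, and 6 rose and 19 fell in the mean. Beside the last pair, 9.00% of all genes rose and 10.8% fell. Without WT day 1 library a, 1 rose on day 1. WNT5A, a ligand of the planar polarity branch, was at 80.6 and 63.5 CPM in WT and 11.3 and 12.4 CPM in ΔATG on day 1, and at 72 and 76.2 and 15.5 and 13.7 CPM on day 2 (-2.47 ± 0.17 in the mean). Its libraries were apart on both days, as were those of LEF1, the nuclear partner of beta-catenin, which stood at 39.3 and 28.7 CPM in WT and 12.8 and 12.4 CPM in ΔATG on day 1 (-2.18 ± 0.24 in the mean). DKK1, a secreted Wnt inhibitor and target, fell from 311 and 213 CPM to 94.3 and 113 CPM on day 1 (-1.34 ± 0.22), and RSPO3, an amplifier of Wnt signals, (-2.21 ± 0.28). AXIN2, the most general Wnt target, did not pass (0.03 ± 0.07, adjusted p = 0.843). SFRP1, a secreted inhibitor, rose by 1.03 ± 0.08, and the receptor FZD5 by 0.66 ± 0.11.

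**Figure D3:**
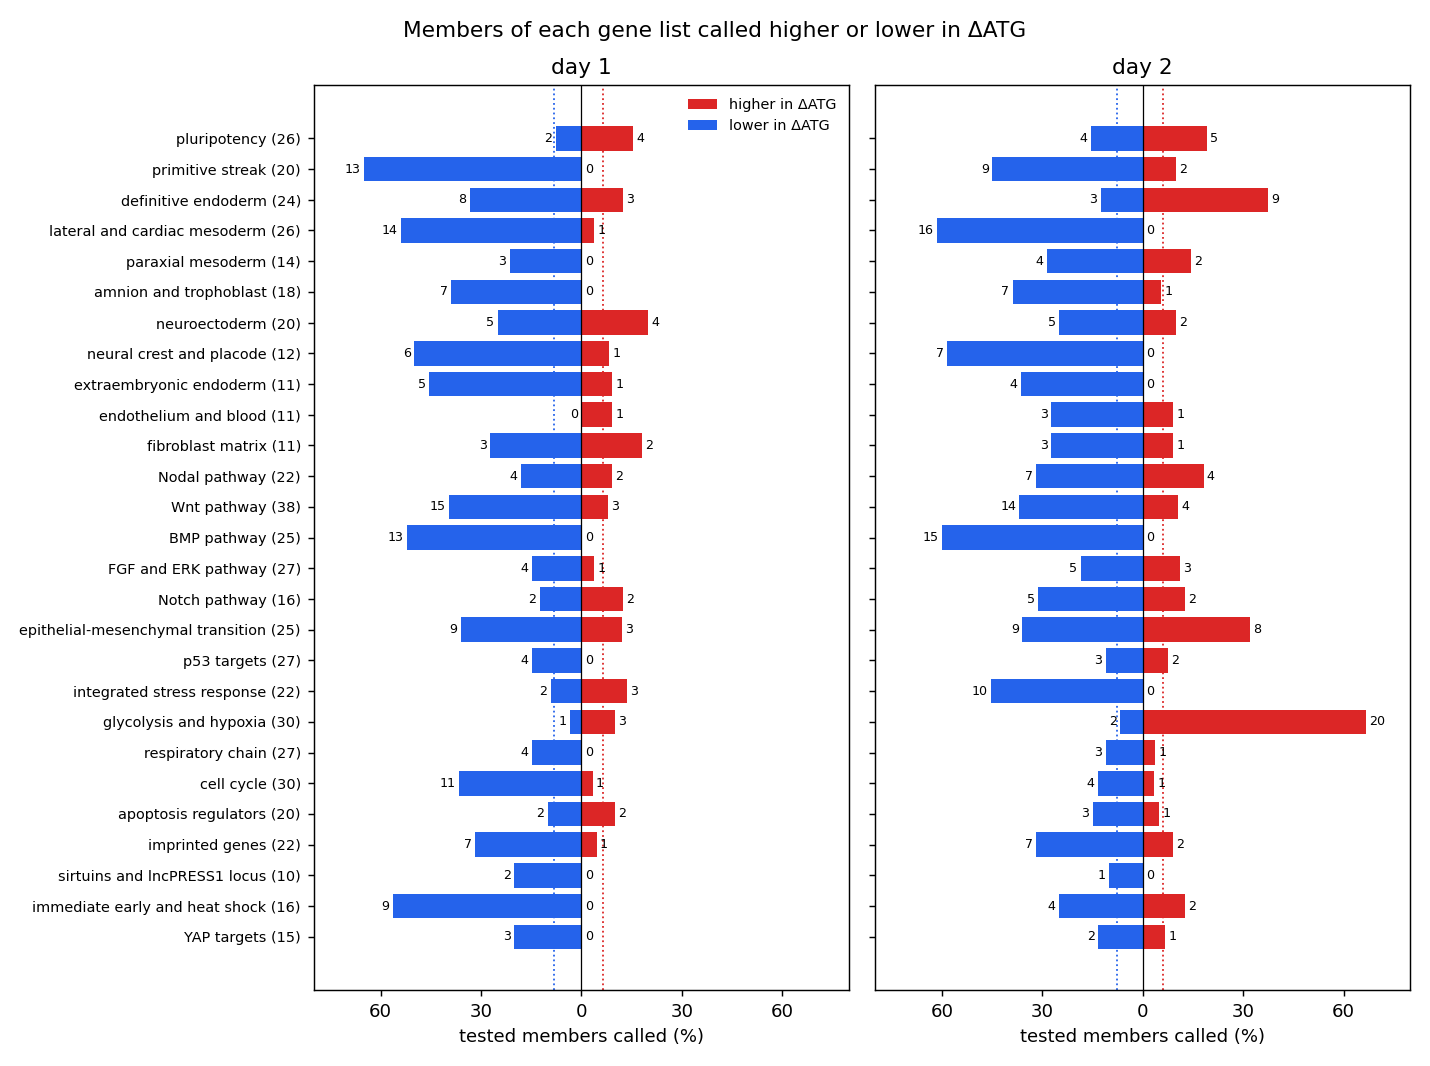
Percent of the tested members of each gene list that were higher (right) or lower (left) in ΔATG on day 1 and on day 2, with the number of members beside each bar and dotted lines at the share of all tested genes. The mesoderm and BMP lists lie far to the lower side on both days, endoderm has more members lower than higher on day 1 (8 and 3 of 24) and the reverse on day 2 (3 and 9), and 20 of 30 glycolysis genes are higher on day 2.

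Several genes of the epithelial state were higher and several of the mesenchymal state lower. Of 25 tested genes of the epithelial-mesenchymal transition, 7 rose and 10 fell in the mean, beside 9.00% and 10.8% of all genes. CLDN4, a tight junction protein, was at 1.51 and 2.34 CPM in WT and 7.6 and 7.85 CPM in ΔATG on day 1 and at 0.975 and 0.855 and 4.01 and 4.73 CPM on day 2. It had the highest rise over both days of all genes that met the expression limit (2.12 ± 0.14, adjusted p = 2.24e-18). CLDN3 rose by 2.11 ± 0.25. On day 2 the adhesion genes EPCAM and CDH1 rose, EPCAM from 58.8 and 57.3 CPM in WT to 147 and 132 CPM in ΔATG (1.26 ± 0.11) and CDH1 by 0.74 ± 0.16, and so did the epithelial factor OVOL2 (1.65 ± 0.22). OVOL1, a relative of OVOL2, fell (-1.01 ± 0.08). Of the factors that drive the mesenchymal state, SNAI1 fell on day 1 (-0.90 ± 0.08), ZEB2 on day 2 (-2.29 ± 0.36), and TWIST2 in the mean (-0.98 ± 0.13). VIM, FN1 and CDH2, structural genes of that state, did not pass on either day.

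Pluripotency genes showed no common direction. Of 26 tested, 6 rose and 5 fell in the mean, beside 9.00% and 10.8% of all genes, and 3 fell without WT day 2 library a. POU5F1 was at 1300 and 1310 CPM in WT and 1380 and 1340 CPM in ΔATG on day 1, with little difference, and at 494 and 475 and 692 and 665 CPM on day 2 (0.49 ± 0.08). NANOG did not pass on either day, and SOX2, already at 5.35 and 5.28 CPM in WT on day 1, rose there by 0.42 ± 0.14, a call lost without ΔATG day 1 library b (adjusted p = 0.202) or WT day 1 library a (adjusted p = 0.182) or ΔATG day 1 library a (adjusted p = 0.125) or WT day 1 library b (adjusted p = 0.118), and did not pass on day 2. ESRG, a non-coding RNA of pluripotent cells, rose by 0.99 ± 0.09, while UTF1 fell (-2.03 ± 0.37).

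Markers of other cell types that the cultures could hold were summed in each library. The amnion and trophoblast list came to 128 to 172 CPM in WT and 53.5 to 54.2 CPM in ΔATG on day 1, and to 161 to 170 and 52.5 to 61.0 CPM on day 2, and 8 of 18 tested members fell in the mean and none rose. That list shares HAND1, TBX3, ISL1, GATA2, GATA3 and BAMBI with the mesoderm and BMP lists. TFAP2A, outside those lists, also fell (-1.78 ± 0.29), while TFAP2C did not pass in the mean, and ITGB6 and TFAP2B were at 0 in both lines on day 1. The neural crest and placode list came to 102 to 122 CPM in WT and 63.9 to 67.0 CPM in ΔATG on day 1, with 7 of 12 members lower in the mean and none higher. It shares MSX1, whose fall is given above, and DLX5 with the BMP list and SNAI2 with the mesoderm list. Paraxial mesoderm came to 63.4 to 83.4 CPM in WT and 31.4 to 32.3 CPM in ΔATG on day 1 (2 of 14 rose, 3 fell in the mean), neuroectoderm to 19.9 to 23.2 and 13.2 to 15.2 CPM (3 of 20 rose, 5 fell). The neuroectoderm sum of day 1 fell by no more than its member ZIC1 alone, whose values are given under the other observations. Endothelium and blood came to 26.2 to 26.8 CPM in WT and 35.4 to 37.3 CPM in ΔATG on day 1 (1 of 11 rose, 2 fell), fibroblast matrix to 791 to 873 and 759 to 788 CPM (2 of 11 rose, 2 fell). On day 2 all of these sums were lower in ΔATG: neural crest and placode came to 304 to 309 CPM in WT and 155 to 180 CPM in ΔATG, paraxial mesoderm to 206 to 219 and 84.5 to 89.6 CPM, and neuroectoderm to 52.4 to 54.1 and 19.8 to 20.4 CPM. Endothelium and blood, higher in ΔATG on day 1, came to 17.7 to 21.3 CPM in WT and 13.6 to 14.4 CPM in ΔATG on day 2, and fibroblast matrix to 1460 to 1560 and 1280 to 1330 CPM. Extraembryonic endoderm, which shares genes with definitive endoderm, had 1 of 11 members higher and 7 lower in the mean. Beside all these counts in the mean, 9.00% of all genes rose and 10.8% fell. The part of these cell types in the mesoderm and BMP results was not tested.

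Glycolysis and integrated stress response genes had more calls on day 2 than on day 1, and these counts rested on single libraries. Of 30 glycolysis and hypoxia genes, 3 rose and 1 fell on day 1, and 20 rose and 2 fell on day 2. Of all genes, 6.13% rose and 7.59% fell on day 2. HK2, which starts glycolysis, was at 44.3 and 61.4 CPM in WT and 175 and 75.4 CPM in ΔATG on day 2, and LDHA, which makes lactate, at 1010 and 1220 and 2150 and 1420 CPM. In both, ΔATG library a stood highest and library b nearer to WT. Without ΔATG library a, 3 of the 30 rose, and without WT library a, 4 rose. The amino acid response moved the other way on day 2. Of 22 genes of the integrated stress response, 3 rose and 2 fell on day 1. On day 2 none rose and 10 fell, among them ASNS, asparagine synthetase, at 145 and 100 CPM in WT and 37.5 and 74.9 CPM in ΔATG. Without ΔATG library a none of the 22 passed on day 2, and without WT library a 2 fell. In the mean of both days the remaining lists had these calls: respiratory chain 0 rose and 5 fell of 27, cell cycle 3 and 9 of 30, apoptosis regulators 2 and 3 of 20, p53 targets 2 and 4 of 27, FGF and ERK pathway 2 and 6 of 27, Notch pathway 2 and 4 of 16, YAP targets 1 and 3 of 15, imprinted genes 1 and 10 of 22, immediate early and heat shock genes 3 and 8 of 16, sirtuins and the lncPRESS1 locus 1 and 2 of 10. Shares of all genes there were 9.00% rising and 10.8% falling, and the counts of the p53 and apoptosis lists lay near them. The cyclin CCND1 was at 391 and 329 CPM in WT and 191 and 176 CPM in ΔATG on day 1 (-1.19 ± 0.13 in the mean), and the Notch ligand DLL3 fell (-2.03 ± 0.12).

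Over all called genes with a mean of at least 2 CPM and lines apart on both days, the deepest falls were led by CHCHD2 and CEBPZOS. CHCHD2 (chr7:56101569-56106576, minus strand, GRCh38), a mitochondrial protein and nuclear regulator, had 6262 and 6075 counts in WT and 1 and 1 in ΔATG on day 1. On day 2 it had 4237 and 3464 counts in WT and 0 and 0 in ΔATG, at least 2710-fold lower against a floor of 3 counts over the group. It was also near 0 outside the Endo protocol, at 65 and 68.1 CPM in WT and 0 and 0 CPM in ΔATG at day 0. On day 1 of Endo the KO line stood at 43.4 and 42.5 CPM, against 109 CPM over the WT libraries of that day. CEBPZOS, a small mitochondrial protein gene, was at 17.8 and 22.1 CPM in WT and 1.28 and 0.51 CPM in ΔATG on day 1, and 18.6 and 19.3 CPM in KO. The zinc finger genes ZNF562 and ZNF528, the carbonyl reductase CBR1, the protocadherin PCDHB5 and the homeobox gene IRX4 were low in both edited lines: CBR1, for example, was at 44.7 and 42.4 CPM in WT, 1.86 and 1.46 CPM in ΔATG and 1.97 and 2.51 CPM in KO on day 1. The mean log2 fold changes of these 5 in ΔATG were -5.37, -4.48, -4.99, -3.77 and -3.28. ENSG00000291168, named only by its identifier, fell (-3.14 ± 0.38). HAND1, FOXF1, TBX3 and MSX1 complete the 12 deepest.

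Among the 12 highest rises under the same limits, beside CLDN4, were CSMD1, a complement regulator (2.08 ± 0.29), MACC1 (2.08 ± 0.41) and the synaptotagmin SYT4 (1.98 ± 0.37). They also held the glutamate receptor subunit GRIN2A (1.94 ± 0.25), ASB5 (1.87 ± 0.21) and PAQR5 of the progestin and adipoQ receptor family (1.82 ± 0.16). The rest were the readthrough gene MSANTD3-TMEFF1 (1.81 ± 0.64), the tetraspanin TSPAN2 (1.80 ± 0.21), APLN (1.79 ± 0.27), the phospholipase PLA2G4C (1.78 ± 0.19) and ENSG00000290092 (1.76 ± 0.14). Reads of a readthrough gene cannot be told apart from those of the genes it joins, and the call of MSANTD3-TMEFF1 was lost when any 1 of 8 libraries was left out (adjusted p = 0.0617 to 0.125, the highest without WT day 2 library b). ASB5 was at 6.84 and 9.91 CPM in WT and 38.2 and 27.9 CPM in ΔATG on day 2, and GRIN2A at 1.63 and 3.14 and 9.24 and 10.5 CPM on day 1. CDKN1A, an inhibitor of the cell cycle, did not pass (-0.19 ± 0.18, adjusted p = 0.536).

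The day mattered for 1066 genes (4.13%), 546 with a higher and 520 with a lower log2 fold change on day 2 than on day 1. Leaving out WT day 1 library a gave 539 such genes, ΔATG day 1 library a 628, WT day 2 library a or b 702 and 652, and ΔATG day 2 library a 617. Of the genes called on day 1, 1390 (36.9%) were also called on day 2, which is 39.2% of the day 2 calls, and 1291 of these had the same sign. The largest positive differences among expressed genes were in APOL3, BHLHE22, CTSF, LIX1 and FAM135B, and the largest negative ones in IKZF2, LINC02607, RPH3A, PLEKHA6 and FMN1. PLEKHA6, an adherens junction adaptor, was at 8.51 and 7.04 CPM in WT and 12.5 and 10.3 CPM in ΔATG on day 1, and at 121 and 143 and 19.6 and 23.4 CPM on day 2, so the sharp rise of WT between the days was not matched in ΔATG (-3.16 ± 0.23, adjusted p = 1.28e-14). APOL3 showed the opposite, at 3.7 and 2.18 CPM in WT and 0.157 and 0.282 CPM in ΔATG on day 1 and 15.5 and 12 and 16.3 and 17.1 CPM on day 2 (3.96 ± 0.61, adjusted p = 8.33e-06).

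The same lines as stem cells had few calls in the mesoderm and BMP lists. At day 0, no member of the mesoderm list was called between ΔATG and WT, though its median log2 fold change was -0.48. In the BMP list, with a median of -0.17, 2 of the 25 genes rose and none fell. Of all genes, 2.30% rose and 3.20% fell. A lack of calls does not show equal levels, since members such as TBX3 were scarce at day 0. The test of the difference from day 0, which 2426 genes passed (9.40%), called 3 of 26 mesoderm genes as more negative in Endo, with a list median of -1.12. In the BMP list it called 10 of 25 as more negative and none as more positive, beside 5.10% and 4.29% of all genes in the positive and negative direction. BMP4 was at 5.1 and 4.81 CPM in WT and 3.47 and 4.94 CPM in ΔATG at day 0, and TBX3 at 0.83 and 0.527 and 0.347 and 0.419 CPM. The change in their difference was -1.78 ± 0.24, adjusted p = 3.61e-07 for BMP4 and -2.30 ± 0.69, adjusted p = 0.0232 for TBX3, the second lost with only the compared libraries in the fit (-2.31, adjusted p = 0.0595). LEFTY1 went the other way, from -0.96 ± 0.31 at day 0 to the rise in Endo (2.34 ± 0.32, adjusted p = 2.83e-07 for the change). CFLAR, which blocks death receptor signalling, also turned sign, from 1.13 ± 0.23 at day 0 to -0.89 ± 0.12 in Endo (-2.01 ± 0.26, adjusted p = 1.01e-07 for the change). Other lists already differed at day 0. Of 22 integrated stress response genes, 13 rose and none fell at day 0, and 15 were more negative and none more positive in Endo (median -0.98). Of 30 glycolysis and hypoxia genes, 1 rose and 6 fell at day 0, and 14 were more positive and 1 more negative in Endo, or 7 more positive without ΔATG day 2 library a. Of 27 p53 targets, none rose and 11 fell at day 0, and 8 were more positive and none more negative in Endo, or 5 more positive without ΔATG day 1 library a. With only the compared libraries in the fit, 2 stress response genes were more negative, and 1 glycolysis gene and 1 p53 target were more positive.

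**Figure D4:**
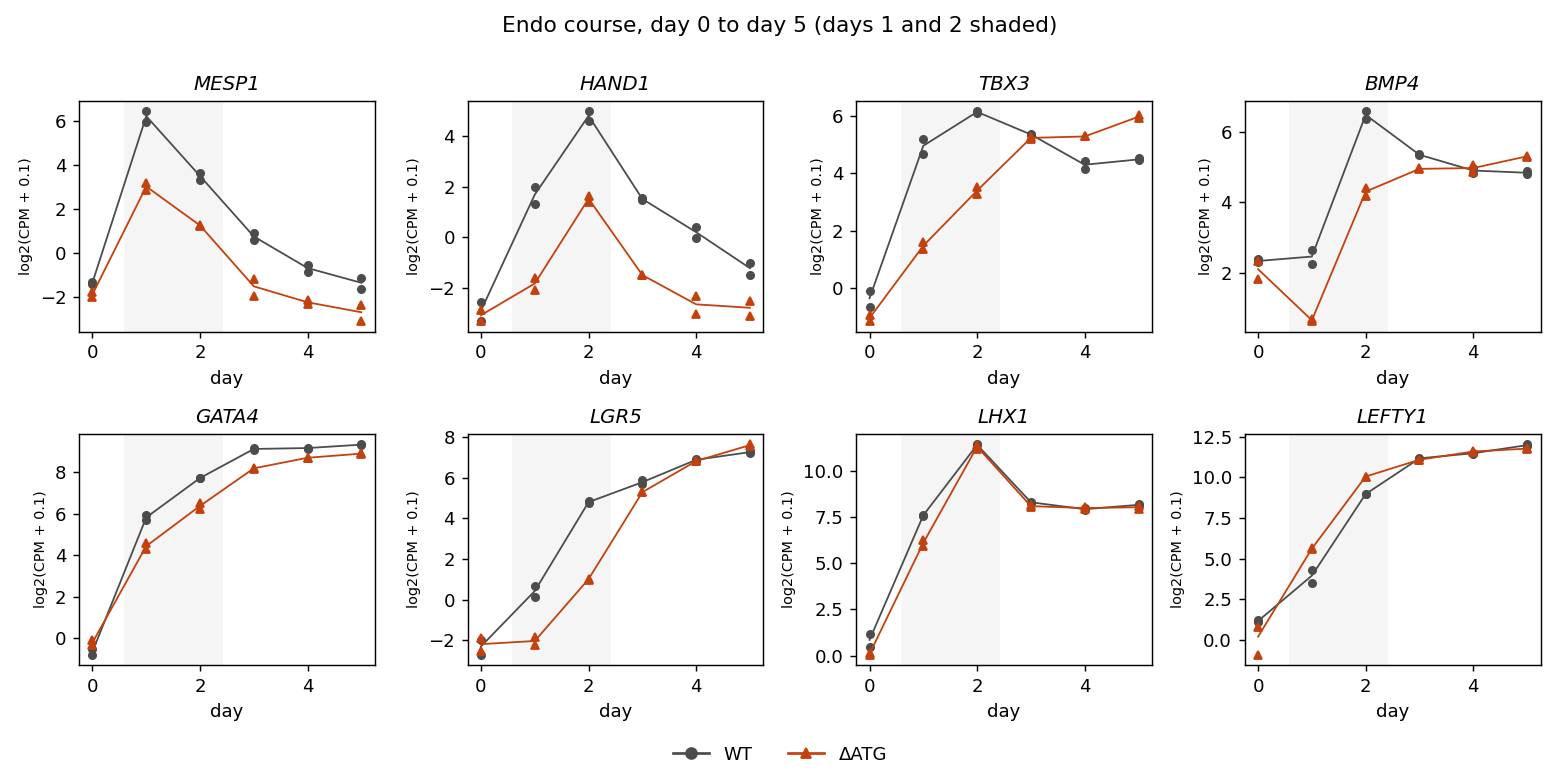
log2(CPM + 0.1) of 8 genes in WT and ΔATG cells at day 0 and on days 1 to 5 of Endo, with points for libraries, lines through group means and shading over days 1 and 2. BMP4, TBX3 and LGR5 lie apart on days 1 and 2 and no longer lie lower in ΔATG by day 4 or 5, while MESP1 and HAND1 decline with ΔATG still below WT on day 3.

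In the mesoderm protocol with BMP4, few genes of the BMP and mesoderm lists differed between the same lines. The ΔATG minus WT difference of days 1 and 2 was compared between the protocols, each with its own WT libraries, and 2134 genes passed (8.26%), 4.15% more positive and 4.12% more negative in Endo. Of the BMP list, none of 25 was called in the BMP4 protocol, and 14 were more negative and 1 more positive in Endo. GATA2 was at 20.2 and 15.4 CPM in WT and 24.6 and 16.3 CPM in ΔATG on day 1 of BMP4, and MSX2 at 59.9 and 68.6 and 63.7 and 63.2 CPM, with groups that overlapped in both. The difference between protocols was -3.79 ± 0.39, adjusted p = 8.35e-11 for GATA2 and -1.84 ± 0.17, adjusted p = 2.69e-12 for MSX2. Of the mesoderm list, 2 of 26 fell in the BMP4 protocol, and 11 were more negative in Endo and none more positive. TBX3 was at 23.9 and 24.2 CPM in WT and 22.5 and 14.1 CPM in ΔATG on day 2 of BMP4, against its fall in Endo (-3.03 ± 0.21, adjusted p = 2.16e-16 for the difference), and HAND1 at 33 and 37.4 and 41.8 and 25.8 CPM (-3.53 ± 0.30, adjusted p = 2.55e-14). MESP1 was -1.02 ± 0.47 in BMP4, where it did not pass, and its difference between protocols (-1.72 ± 0.54, adjusted p = 0.0325) was lost with only the compared libraries in the fit and without WT day 1 library a (-1.60, adjusted p = 0.0573).

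Streak genes were lower in ΔATG in both protocols, and some differed in size between them. In BMP4, 15 of 20 fell and none rose, and 7 were more positive and 3 more negative in Endo. MIXL1 was at 38.8 and 43.8 CPM in WT and 12.3 and 11.7 CPM in ΔATG on day 1 of BMP4, EOMES at 73.3 and 72.3 and 39.2 and 34.1 CPM, and GSC at 10.4 and 9.69 and 6.68 and 3.07 CPM on day 2. Their differences between the protocols were 0.95 ± 0.18, 0.78 ± 0.12 and 1.40 ± 0.22. FOXA2, of the endoderm list, fell in BMP4 (-1.64 ± 0.26) and differed between the protocols by 2.01 ± 0.28, adjusted p = 2.79e-07. The shares of all genes that rose and fell in BMP4 were 1.10% and 1.89%.

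**Figure D5:**
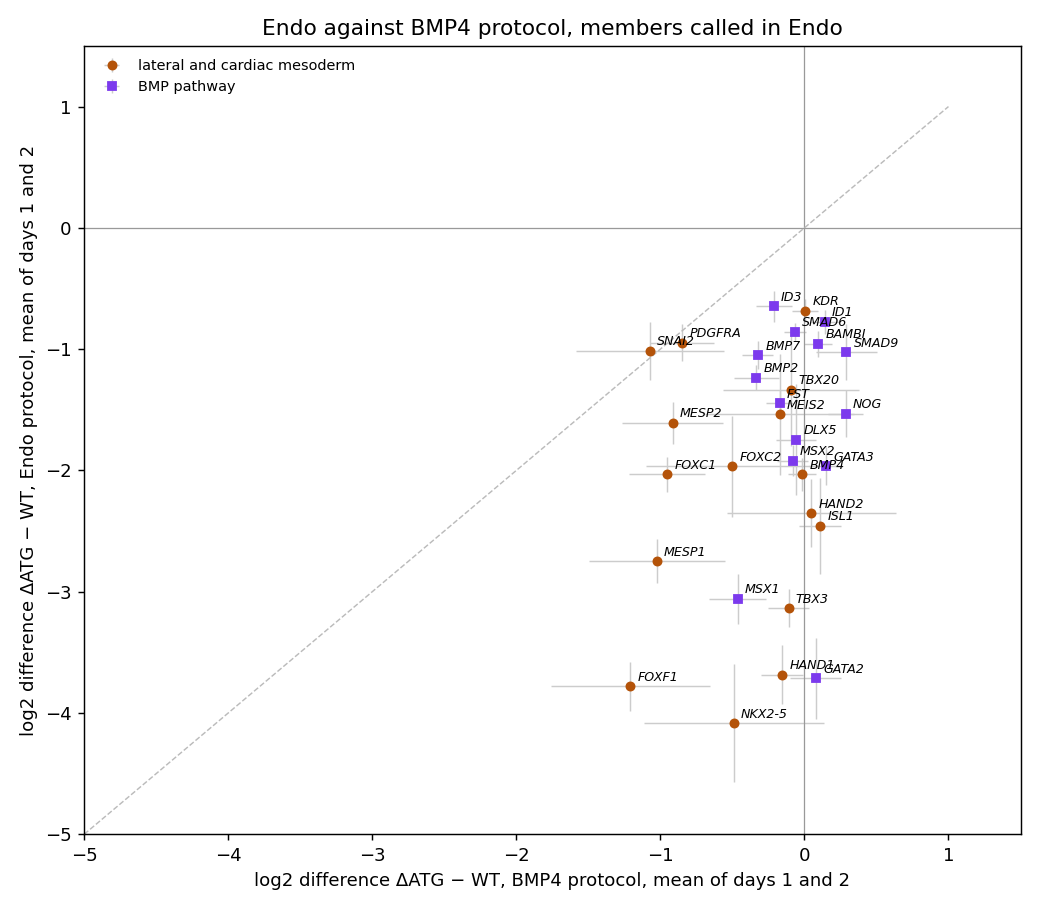
Mean log2 fold change of ΔATG over WT on days 1 and 2 of BMP4 (horizontal) against days 1 and 2 of Endo (vertical), with bars of 1 SE, for members called in Endo: 16 mesoderm and 14 BMP pathway genes, with 1 mesoderm gene not drawn. Most points lie well below 0 on the Endo axis and near 0 on the BMP4 axis.

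Later in the Endo protocol several of the differences were smaller or had turned. Days 1 and 2 differed from days 3 to 5 in 3164 genes (12.3%), 6.05% more positive and 6.20% more negative early. Of the BMP list 14 were more negative early and 1 more positive, and of the mesoderm list 7 were more negative and none more positive. TBX3 moved from -2.75 ± 0.20 on day 2 to -0.12 ± 0.19 on day 3 and 1.49 ± 0.19 on day 5, and BMP4 from -2.18 ± 0.15 to -0.40 ± 0.14 and 0.47 ± 0.14. LGR5 no longer passed from day 3 on (-0.49 ± 0.19 on day 3), with a change of -3.38 ± 0.37, adjusted p = 1.7e-10. ID1 turned from lower on days 1 and 2 to higher on day 5 (2.67 ± 0.16). GATA4 stayed lower on each later day, at -0.93 ± 0.15, -0.47 ± 0.15 and -0.43 ± 0.15, less than on days 1 and 2 (-0.75 ± 0.14, adjusted p = 5.31e-05 for the difference). MESP1 was still lower on day 3 (-2.73 ± 0.62) and did not pass on days 4 and 5, and SMAD3 was lower on days 3 to 5 (-1.13 ± 0.13, -0.99 ± 0.13 and -0.79 ± 0.13).

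The KO line differed from WT in part of the same genes on days 1 and 2. Both comparisons share the 4 WT libraries, which alone makes their values alike, so ΔATG was also tested against KO directly. KO against WT gave 2.65% of genes higher and 3.66% lower, with 11 of 26 mesoderm genes and 8 of 25 BMP genes lower and none higher. ΔATG against KO gave 1915 genes (7.42%), 3.50% higher and 3.92% lower, with 10 mesoderm and 13 BMP genes lower in ΔATG and none higher. Without ΔATG day 2 library a that count was 1064, without KO day 1 library b 1244 and without ΔATG day 1 library a 1256. MESP1 was at 41.5 and 46.2 CPM in KO on day 1, below both WT libraries and above both ΔATG libraries (-0.78 ± 0.16 against WT in the mean, and -1.97 ± 0.19, adjusted p = 1.04e-11 for ΔATG against KO). TBX3 was at 26.4 and 29.3 CPM in KO on day 2, likewise between the lines (-2.01 ± 0.16, adjusted p = 1.93e-14 for ΔATG against KO), and BMP4 at 57.7 and 53.2 CPM (-1.34 ± 0.14, adjusted p = 5.04e-10). GATA4 was at 158 and 154 CPM in KO on day 2, also in between (-0.93 ± 0.11, adjusted p = 7.12e-09). BMP7 was lower in both lines and did not differ between them by the test (-1.18 ± 0.11 for KO against WT, and 0.13 ± 0.12, adjusted p = 0.638 for ΔATG against KO). LGR5 was at 15.5 and 16.5 CPM in KO on day 2 and did not pass against WT (-0.63 ± 0.25), while ΔATG lay below KO (-2.83 ± 0.38, adjusted p = 1.06e-07).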

How the data were processed

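Polyadenylated RNA was measured in stranded libraries. The authors deposited expected counts per gene, that is estimated counts with decimals that the file's name calls length scaled, for 62703 genes in 120 libraries. The build is GRCh38, per the submitters' processing notes, while aligner, quantifier and annotation were not given in the sources used here. Libraries were matched to columns by the labels' description, with 0 value columns left unused for want of a sample.

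The deposited counts were rounded to whole numbers and fitted in R 4.3.3 with edgeR 4.0.16 (quasi-likelihood F test, two-sided, TMM scaling, filterByExpr) over 96 libraries of 48 groups, with 48 residual degrees of freedom, so that all groups share the estimate of spread. Of the genes, 25821 were tested, which held at least 99.98% of each library's counts. TMM factors of the 8 libraries were 0.955 to 1.038. Benjamini-Hochberg adjustment ran over all tested genes of a comparison, and a gene was called, and is said to have risen or fallen, at an adjusted p under 0.05. Values after ± are standard errors of the log2 fold change. CPM uses the scaled totals. Between the genes, counts are not compared.

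The 27 gene lists and all members were chosen with earlier results of these data known. Lists overlap, and a shared gene is counted in each. For example, MESP1 and MESP2 are in the streak and mesoderm lists, and NODAL and FOXH1 in the streak and Nodal lists. Named genes are the 12 highest rises and 12 deepest falls in the mean of both days (mean log2 CPM of at least 1, lines apart on both days), the 5 largest differences between the days in each direction, called members of the streak, endoderm, mesoderm and Nodal lists, up to 3 called members each way of other lists, and LNCPRESS1, MESP1, GATA4 and further genes that earlier results name. Members given with a value that did not pass, and those of other lists beyond 3 each way, were picked after their values were seen. Some named genes are counted in their lists and not reported here. Replicates were not identical. A test on simulated counts recovered 75% of log2 changes of 1 and 23% of 0.5 on day 1, and 93% and 49% in the mean of both days. It fitted 25431 genes, with 100 changed per size, all drawn from genes above 1 CPM on average in WT. Recovery for scarcer genes was not tested. Gene positions are from GENCODE 29 and promoters from RefSeq (GRCh38.p14), matched by symbol. Alternatives were DESeq2 1.42.0 (its test and its size factors), limma 3.58.1 with voom, no filter on low counts, smaller fits, a replicate block and each library left out, and, chosen after seeing the data, edgeR's older quasi-likelihood fit.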

Additional observations from a re-analysis of the deposited data

Results flagged for a closer look

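Results are given here where the ΔATG minus WT difference itself differed between days, protocols or stages by the edgeR test of that difference, with Benjamini-Hochberg adjustment. The counts of such genes were 1066 between days 1 and 2, 2426 against day 0, 2134 against the BMP4 protocol and 3164 against days 3 to 5.

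Values below are day 2 minus day 1 differences of the log2 fold change. They were positive in the streak genes FGF17 (2.05), MESP2 (1.83), WNT8A (1.46), LHX1 (1.40), FOXH1 (0.95), TBX6 (0.89) and FZD8 (0.78). FGF8 was the streak gene with a negative difference (-1.54). Endoderm genes with positive differences were FOXA1 (2.86), PRDM1 (1.96), CYP26A1 (1.26), GATA6 (0.82), HHEX (0.82), FOXA3 (0.54) and RIPK4 (0.50), and CPE was negative (-0.78). Of the mesoderm genes, FOXC1 (1.72) and PDGFRA (1.19) were positive, while MEIS1 (-4.54), HAND2 (-2.72) and KDR (-0.73) were negative. HAND2 stood at 1.26 and 0.458 CPM in ΔATG on day 1 against 1.44 and 1.8 CPM in WT, and MEIS1 at 0.762 and 0.211 CPM against 0.233 and 0.0524 CPM. Without ΔATG day 1 library a the difference between the days was -1.87, adjusted p = 0.237 for HAND2 and -3.41, adjusted p = 0.222 for MEIS1.

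In the Nodal pathway the transducers SMAD3 (-1.10) and SMAD2 (-0.40), the receptor ACVR1C (-2.08), the ligand GDF3 (-0.91) and LEFTY2 (-0.69) were negative and the repressor TGIF1 (0.75) positive. With mean log2 CPM at 1 or more, the 5 highest differences were in APOL3 (3.96), BHLHE22 (2.95), CTSF (2.77), LIX1 (2.62) and FAM135B (2.60). The 5 lowest were in IKZF2 (-3.38), LINC02607 (-3.29), RPH3A (-3.25), PLEKHA6 (-3.16) and FMN1 (-3.02). IKZF2 stood at 1.24 and 5.55 CPM in the WT libraries of day 2 and at 1.38 and 1.36 CPM in ΔATG, where the groups overlapped.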

How the results depend on the processing

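Of 188 named genes, 163 were called in the mean of both days. Of these, 121 kept the call under every alternative run, 42 lost it under at least 1, and none changed sign. Leaving out 1 library accounted for 41 of the losses, the fit of the compared libraries only for 16 and the replicate block for 2. The mean of both days gave 3522 to 4822 genes when 1 library was left out. Counts moved with the libraries that estimate the spread, and the cause was not tested. With only Endo libraries in the fit, day 1 gave 5970 genes, the difference between the days 2140, days 1 and 2 against days 3 to 5 4754, and ΔATG against KO 3144. With only the compared libraries, the difference from day 0 fell to 581 genes. Letters a and b pair nothing by the labels, and the b minus a deviations of same-day groups correlated at -0.068 to 0.021 over 13799 genes. With a replicate block for the letter, day 1 gave 5932 genes, the difference between the days 2119, the difference from day 0 3849, that from BMP4 3469 and ΔATG against KO 3177.

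Leaving out 1 of the libraries compared gave 1333 to 3275 genes on day 1 and 1836 to 3106 on day 2. Leaving out a library of the other day gave up to 3743 and 3511. Leaving out 1 library gave 539 to 936 genes for the difference between the days, and 1064 to 2028 for ΔATG against KO. It gave 1832 to 2426 genes for the difference from day 0, 1553 to 2287 for that from BMP4 and 2542 to 3094 for that from days 3 to 5. Only libraries of Endo days 1 and 2 were left out. The weight of single libraries of day 0, of BMP4 or of days 3 to 5 was therefore not tested. The older edgeR fit gave 3606, 3078 and 5138 genes on day 1, on day 2 and in the mean. Across all alternatives the mesoderm list had 15 to 18 falls in the mean of both days, the BMP list 15 to 18 and the streak list 12 to 16, while the endoderm list had 9 to 14 rises on day 2.

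A sign changed in 5 genes whose mean of both days was not called. FAM135B went to -0.09, -0.038 and -0.018 without WT day 1 library b, WT day 2 library b and ΔATG day 2 library b, in a range of -0.09 to 0.254. MEF2C went to -0.037 with limma voom, and to -0.203, -0.031 and -0.752 without ΔATG day 1 library a, WT day 2 library a and ΔATG day 2 library b, in a range of -0.752 to 0.659. ACVR1C went to 0.081, 0.123 and 0.025 without ΔATG day 1 library b, WT day 2 library a and ΔATG day 2 library b (range -0.287 to 0.123). MEIS1 went to 0.096 without WT day 1 library a (range -1.16 to 0.096), and WNT3A to 0.018, 0.016 and 0.003 without WT day 1 library a, WT day 2 library a and ΔATG day 2 library a (range -0.204 to 0.018).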

Other observations

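Among imprinted genes, H19, a maternally expressed non-coding RNA, was lower in ΔATG: 0.97 and 1.42 CPM in WT and 0.135 and 0.0704 CPM in ΔATG on day 1, and 1.25 and 2.11 CPM in WT and 0.0179 and 0.0723 CPM in ΔATG on day 2 (adjusted p = 2.05e-08 in the mean with edgeR, no fold being given on so few reads). It was also lower at day 0 (-2.26 ± 0.27) and in the BMP4 protocol (-3.34 ± 0.26), and did not pass in KO against WT (0.14 ± 0.28). ZIC1, a neuroectoderm factor, was at 10 and 11 CPM in WT, 0.493 and 1.18 CPM in ΔATG and 0.651 and 0.956 CPM in KO on day 1, low in both edited lines. TIGAR, which limits glycolysis, was at 12.2 and 12.6 CPM in WT and 1.4 and 1.92 CPM in ΔATG on day 2 (-2.91 ± 0.45, adjusted p = 1.64e-06) and did not pass on day 1 (-0.15 ± 0.32). KO stood at 1.81 and 2.03 CPM on day 2, beside ΔATG, and ΔATG against KO did not pass in the mean of both days (-0.24 ± 0.33). FGFR3, an FGF receptor, fell (-1.09 ± 0.09) in the mean of both days.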
